A study of Homo sapiens with 4 samples.

Results

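The 33 genes described here make cholesterol, sense it, or take it up, move and store it. They were chosen by symbol from what they are known to do, with no measured value in the rule. Earlier results of these data were known when the choice was made. All 33 were found among the 16370 genes listed in the count tables. MSMO1 and SC5D were listed under the older symbols SC4MOL and SC5DL. By role they fell into 8 genes of the mevalonate and isoprene steps, 11 genes from squalene to cholesterol, 7 genes of SREBP control, and 7 genes of uptake, transport and esterification. Some genes of the pathway are not analysed here.

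The measurement was RNA sequencing of 4 human hepatoma cultures, with 1 library each. Hep3B and Huh7 are established hepatoma lines and form the HCC (hepatocellular carcinoma) group. Hep3B-C and Huh7-C, labelled hepatic cancer stem cells (HCSC), are stem-like cultures that were grown from Hep3B and Huh7. No drug, transgene or knockdown is named for any of the 4, and the media and the number of passages are not given in the sources used here. Each stem-like culture was set against its own parental line, since the study asked what sets the stem-like cells apart. With 1 library per line a comparison covers the counting error of 2 libraries and has no replicate check. Total gene counts ran from 2896418 (Hep3B) to 4641927 (Hep3B-C), and 30 of the 33 genes had at least 10 counts in every library.

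The liver cell identity of the cultures was checked with marker genes. All 8 hepatocyte markers had at least 3 counts in every library, with a summed level between 26489 and 62363 CPM, the count relative to the total of its library. Single markers moved, 3 up and 3 down in Hep3B-C and 1 up and 3 down in Huh7-C. SERPINA1 made up 40517 of the 49746 CPM in Huh7, where ALB stood at 106 CPM. AFP had only 26 counts in Huh7 and 12 in Huh7-C, and TTR had 13 in each. The 6 fibroblast markers summed to between 10.8 and 45.2 CPM and the 3 endothelial markers to between 2.76 and 21.5 CPM. Of the 4 blood markers, PTPRC, CD3E and HBB were not seen in any library, and CD68 stood between 99.8 and 270.2 CPM. In Huh7-C, PECAM1 (17 to 93 counts) and COL3A1 (0 to 58) were called up and PDGFRB (186 to 2) down, and CD68 was called up in Hep3B-C. The part of these markers in the sterol results was not tested. Of the 3 stem-like markers, PROM1 and EPCAM were down-regulated in Hep3B-C (EPCAM not past the called size with TMM library sizes), neither passed the test in Huh7-C, and THY1 had at most 1 count in any library.

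Cholesterol is built from acetyl-CoA. The mevalonate steps give the isoprene unit, isoprene units are joined to farnesyl diphosphate and then squalene, and squalene is closed to a ring that is trimmed to cholesterol. The liver is the main organ of this synthesis and of lipoprotein traffic. The genes are known to be switched together by SREBPs, transcription factors held in the membrane of the endoplasmic reticulum. When sterol is low, SCAP carries SREBP to the Golgi, where 2 proteases release its active part, and when sterol is high, INSIG proteins hold SCAP back. SREBP is known to bind the sterol regulatory element with help from NF-Y, which binds CCAAT.

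The promoters of genes called alike in both HCSC lines are shown to place these motifs beside the changes described in the following paragraphs. INSIG1 was added as a known SREBP target among the control genes. This choice was made after values and matches had been seen, and the rule set for printing, called genes that hold the sterol regulatory element, gives SREBF2 alone. Sequences are RefSeq promoter stretches in GRCh38.p14, upstream of the start and without bases of a protein-coding exon. HMGCS1, DHCR7 and INSIG2 have another window each. The window with the most matches is printed (for INSIG2, with none in either, the longer stretch), and the other HMGCS1 and DHCR7 windows held no match. The DHCR7 stretch belongs to a start inside the gene span given for it. Capitals mark a match to the sterol regulatory element (TCACNCCAC) or to the NF-Y box (CCAAT), on either strand. The stretches are chr22:41832855-41833078 (plus strand) for SREBF2, chr5:43313513-43313662 (minus) for HMGCS1, chr16:88663162-88663341 (minus) for MVD, chr11:71448436-71448643 (minus) for DHCR7, chr7:155297628-155297775 (plus) for INSIG1 and chr2:118088221-118088451 (plus) for INSIG2. GENCODE 29 (GRCh38) places the protein-coding genes SREBF2 (Entrez 6721) at chr22:41833079-41907308, HMGCS1 (Entrez 3157) at chr5:43289395-43313512, MVD (Entrez 4597) at chr16:88651935-88663161, DHCR7 (Entrez 1717) at chr11:71428193-71452868, INSIG1 (Entrez 3638) at chr7:155297776-155310235 and INSIG2 (Entrez 51141) at chr2:118088452-118110997.
SREBF2: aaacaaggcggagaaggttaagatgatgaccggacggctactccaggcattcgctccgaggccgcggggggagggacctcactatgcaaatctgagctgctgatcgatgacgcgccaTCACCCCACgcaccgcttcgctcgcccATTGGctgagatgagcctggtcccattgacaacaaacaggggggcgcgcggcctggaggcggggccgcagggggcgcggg
HMGCS1: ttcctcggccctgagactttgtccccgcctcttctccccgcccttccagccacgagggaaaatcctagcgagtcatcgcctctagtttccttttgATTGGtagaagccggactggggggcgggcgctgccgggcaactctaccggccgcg
MVD: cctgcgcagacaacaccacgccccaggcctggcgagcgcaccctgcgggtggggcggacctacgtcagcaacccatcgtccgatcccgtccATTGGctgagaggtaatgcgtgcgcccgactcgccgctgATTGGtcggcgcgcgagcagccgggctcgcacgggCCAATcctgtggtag
DHCR7: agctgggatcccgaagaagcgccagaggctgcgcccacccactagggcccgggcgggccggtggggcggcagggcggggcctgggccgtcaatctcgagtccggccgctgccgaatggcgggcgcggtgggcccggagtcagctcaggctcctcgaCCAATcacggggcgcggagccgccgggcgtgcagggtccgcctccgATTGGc
INSIG1: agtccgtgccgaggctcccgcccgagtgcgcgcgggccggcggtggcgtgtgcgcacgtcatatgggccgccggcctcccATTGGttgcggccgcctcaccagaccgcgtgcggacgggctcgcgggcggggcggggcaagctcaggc
INSIG2: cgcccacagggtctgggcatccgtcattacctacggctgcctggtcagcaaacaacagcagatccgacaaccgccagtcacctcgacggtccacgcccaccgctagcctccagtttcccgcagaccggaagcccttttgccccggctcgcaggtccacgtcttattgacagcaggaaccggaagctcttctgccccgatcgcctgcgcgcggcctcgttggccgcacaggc

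The window searched ran from 250 bases before to 50 bases after the start, and 29 of the 33 genes had one. ACAT2, FDFT1, SQLE and SOAT2 had none in the table used. The NF-Y box was in a window of 21 of 29 genes (72.4%), against 39.7% of the 27305 genes with a window. The E-box (CACGTG) was in 4 of 29 (13.8%) against 8.78% of all, and the sterol regulatory element was in 1 of 29 (3.45%) against 1.39%. That single match, TCACCCCAC in SREBF2, began 133 bases before the start, and an NF-Y match followed at 106 bases before it. NSDHL and MVK each held 5 NF-Y matches, IDI1 held 5 over its windows and MSMO1 held 4, while neither window of INSIG2 held any of these motifs. Of the 19 genes with a window that were up-regulated in Hep3B-C, 15 held an NF-Y box. These matches are letters in a window and show no binding.

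Most of the 33 genes were up-regulated in Hep3B-C and fewer in Huh7-C. A gene was called where a Poisson-based test of the pair of counts (Audic-Claverie) gave a false discovery rate (FDR, Benjamini-Hochberg over all listed genes) of at most 0.01 and the log2 fold-change (HCSC over HCC, per total count) was at least 1 in size. In Hep3B-C, 23 of 33 were called up and 4 down, where 13.2% of all 15480 genes were called up and 30.4% down. In Huh7-C, 6 were called up and 1 down, where 4.19% of 14807 genes were called up and 4.15% down. Without the threshold on size, 25 passed upward and 5 downward in Hep3B-C (19.1% and 37.9% of all genes), and 16 upward and 4 downward in Huh7-C (15.4% and 12.2%). For Hep3B-C the median log2 fold-change of the 33 genes was 1.61, against -0.55 for all genes with at least 20 counts in the pair. For Huh7-C these medians were 0.47 and 0.06. TMM library sizes moved the all-gene median of the Hep3B pair to 0.04 and its calls from 2043 up and 4708 down to 3348 up and 2799 down. The sterol genes were then 26 up and 1 down. Where a biological coefficient of variation of 0.4 was assumed in place of counting error alone (edgeR exact test), MVD was the 1 sterol gene still called in Hep3B-C and 0 were called in Huh7-C. Of all genes, 0.401% were then up and 1.09% down in Hep3B-C, and 0.0878% up and 0.081% down in Huh7-C. In bulk RNA, fewer cells of a type and less RNA per cell cannot be told apart.

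**Figure D1:**
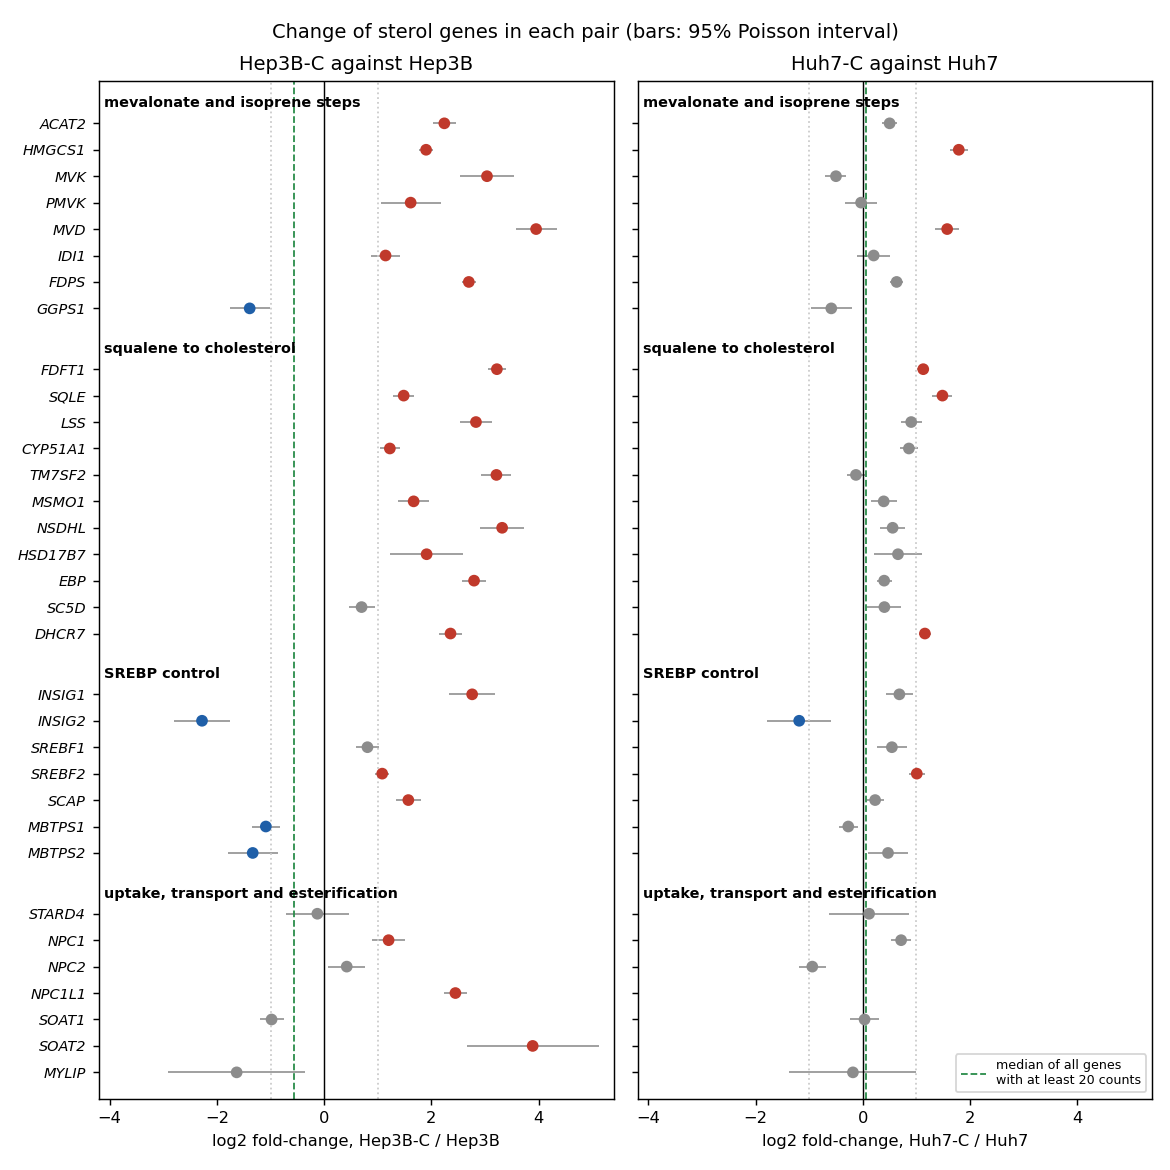
Log2 fold-change of each sterol gene in Hep3B-C against Hep3B (left) and Huh7-C against Huh7 (right), 1 library per line, with horizontal bars for the 95% Poisson interval. Red points were called up, blue points called down and grey points not called, the dotted lines mark a log2 fold-change of 1 in size and the dashed line the median of genes with at least 20 counts; NPC1L1 and SOAT2 are not drawn for the Huh7 pair, where they had at most 2 counts. The synthesis genes sit far to the right in Hep3B-C (median 2.24) and closer to 0 in Huh7-C (median 0.55).

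Of the 23 genes up-regulated in Hep3B-C, 6 were up-regulated in Huh7-C too: HMGCS1, MVD, FDFT1, SQLE, DHCR7 and SREBF2. Over the 13917 genes listed in both pairs, 0.568% were up in both. INSIG2 was the single sterol gene down-regulated in both, where 1.49% of shared genes were. The other 17 genes called up in Hep3B-C had no call in Huh7-C, 3 genes were down in Hep3B-C alone, 6 were called in neither line, and no gene was called in opposite directions. The log2 fold-change was above 0 in both pairs for 22 genes, and it was the larger in Hep3B-C for 25. Both numbers include NPC1L1 and SOAT2, which had at most 2 counts in the Huh7 pair. Among all genes it was above 0 for 5451 of 15480 in Hep3B-C and for 7915 of 14807 in Huh7-C. The difference between the pairs had a 95% counting interval above 0 for 20 genes (SOAT2 included), below 0 for 5 and around 0 for 8 (NPC1L1 included). Such intervals were not counted over all genes. The counts of intervals for the sterol genes depended on the scaling. With TMM they were 25, 2 and 6, and with GC content and length trends removed 23, 0 and 10. That interval leaves out variation between cultures, and no replicated test of the difference could be made.

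In the mevalonate and isoprene steps, 7 of 8 genes were up-regulated in Hep3B-C and 1 was down-regulated, giving a median log2 fold-change of 2.07. In Huh7-C, HMGCS1 and MVD were up-regulated and the median was 0.35. HMGCS1, the cytosolic HMG-CoA synthase, stood at 174.4 CPM in Hep3B and 651 CPM in Hep3B-C, and at 81.3 CPM in Huh7 and 281 CPM in Huh7-C. Both HCSC libraries were above both HCC libraries. The log2 fold-changes of HMGCS1 were 1.90 ± 0.07 and 1.79 ± 0.09 (counting SE), and their difference of 0.11 had an interval from -0.10 to 0.33. The difference was 0.75 with TMM and 1.73 with GC content and length trends removed. MVD decarboxylates the mevalonate product to the isoprene unit. It rose from 19.3 to 301.8 CPM in the Hep3B pair and from 48.0 to 143.1 CPM in the Huh7 pair. These were log2 fold-changes of 3.95 ± 0.20 and 1.57 ± 0.11, the first the largest point value of the 33 genes in Hep3B-C. The Hep3B level rested on 56 counts (exact 95% Poisson interval 42.3 to 72.7).

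The kinases between these steps differed between the lines. MVK, which phosphorylates mevalonate, stood at 11.7 CPM in Hep3B and 97.6 CPM in Hep3B-C, and at 113.7 CPM in Huh7 and 80.3 CPM in Huh7-C. Hep3B was thus the low library, and the other 3 lay within 80.3 to 113.7 CPM. MVK was up-regulated in Hep3B-C (log2 fold-change 3.04 ± 0.25) and lower in Huh7-C by less than the called size (-0.50 ± 0.10, Audic-Claverie FDR 3.1e-06). PMVK, the next kinase, was up-regulated in Hep3B-C at 1.61 ± 0.29 and stood at -0.03 ± 0.15 in Huh7-C. ACAT2, which joins acetyl-CoA units, had 2.24 ± 0.11 in Hep3B-C and, without a call, 0.50 ± 0.07 in Huh7-C. Exons of ACAT2 overlap those of SOD2-OT1 (1458 bases), SOD2 (1141 bases) and TCP1 (397 bases), and exons of MVK those of MMAB, on the opposite strand in GENCODE 29. Whether the counts used strand is not given in the sources used here, so reads of such partners cannot be told apart. In all, 14 of the 33 genes share exon bases with a gene on the opposite strand and 5 with a gene on the same strand.

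At the end of this stretch the route branches. IDI1 isomerises the isoprene unit and was up-regulated in Hep3B-C at 1.14 ± 0.14, against 0.20 ± 0.16 in Huh7-C. FDPS, farnesyl diphosphate synthase, had the highest level per length of the 33 genes in Hep3B (120.0 RPKM, a level scaled to gene length and library total) and in Hep3B-C (779 RPKM), and stood at 130.3 RPKM in Huh7 and 202 RPKM in Huh7-C. Its log2 fold-changes were 2.70 ± 0.07, a call, and 0.63 ± 0.06, under the called size. GGPS1 makes geranylgeranyl diphosphate, which leaves the sterol route for prenylation of proteins. It went the other way from its neighbours, from 51.4 to 19.6 CPM in the Hep3B pair (-1.39 ± 0.19, called down) and from 31.3 to 20.8 CPM in the Huh7 pair (-0.59 ± 0.19, no call). GGPS1 shares exon bases with TBCE on the same strand, and FDPS has 8 named pseudogenes that could share its reads. The call of GGPS1 was lost with TMM (log2 fold-change -0.79), with the trend over gene length removed (-0.97), and with trends over GC content and length removed (-0.02).

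From squalene to cholesterol, 10 of 11 genes were up-regulated in Hep3B-C and none was down-regulated, with a median log2 fold-change of 2.36. In Huh7-C, FDFT1, SQLE and DHCR7 were up-regulated, and the median was 0.65. FDFT1, squalene synthase, commits farnesyl diphosphate to sterols. It had 98.4 CPM in Hep3B and 919 CPM in Hep3B-C, and 204 CPM in Huh7 and 446 CPM in Huh7-C. Its log2 fold-changes were 3.22 ± 0.09 and 1.13 ± 0.06. In Huh7-C it had the highest level per length of the 33 genes, at 212 RPKM.

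SQLE, squalene epoxidase, is a known control point of the route. It stood at 88.0 CPM in Hep3B, 246 CPM in Hep3B-C, 70.3 CPM in Huh7 and 197 CPM in Huh7-C. The log2 fold-changes were 1.48 ± 0.10 and 1.48 ± 0.09, and the interval of the difference was from -0.27 to 0.27. With TMM the difference was 0.64, and with GC content and length trends removed 0.87, both outside that interval. DHCR7, the reductase of the last step in the Kandutsch-Russell order of reactions, had 66.6 CPM in Hep3B, 341.9 CPM in Hep3B-C, 191 CPM in Huh7 and 426 CPM in Huh7-C. Its log2 fold-changes were 2.36 ± 0.11 and 1.16 ± 0.06. Huh7-C had the highest level of DHCR7 and Hep3B the lowest.

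The other enzymes of this stretch were called in Hep3B-C, SC5D excepted, and none of them in Huh7-C. LSS, which closes the sterol ring, had log2 fold-changes of 2.83 ± 0.16 and 0.90 ± 0.10. CYP51A1, the lanosterol demethylase, had 1.22 ± 0.10 and 0.86 ± 0.08, the smallest difference between the pairs among the enzymes called in Hep3B-C alone. CYP51A1 shares 2844 exon bases with AC000120.2 on the same strand and has 3 named pseudogenes, and HSD17B7 has 2, so their counts are uncertain in that respect. The enzymes that remove the methyl groups at the ring, MSMO1, NSDHL and HSD17B7, had 1.67 ± 0.15, 3.32 ± 0.21 and 1.91 ± 0.34 in Hep3B-C. In Huh7-C their values were 0.39 ± 0.13, 0.55 ± 0.12 and 0.65 ± 0.23. EBP, the sterol isomerase, had 2.80 ± 0.12 and 0.40 ± 0.07, and was the highest of the 33 genes per length in Huh7, at 140.2 RPKM.

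TM7SF2, a sterol reductase, was called in Hep3B-C and did not pass the test in Huh7-C. It stood at 37.3 CPM in Hep3B and 347 CPM in Hep3B-C, but at 141 CPM in Huh7 and 129 CPM in Huh7-C. The log2 fold-change was 3.21 ± 0.14 for Hep3B-C against -0.13 ± 0.08 for Huh7-C (FDR 0.25), a difference of 3.34 with an interval from 3.02 to 3.67. With GC content and length trends removed it was 1.84. SC5D, the sterol desaturase, had 0.70 ± 0.12 for Hep3B-C and 0.40 ± 0.16 for Huh7-C. It is the longest of the 33 genes at 7019 bases, and with the length trend removed its value in Hep3B-C was 2.17, past the called size.

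**Figure D2:**
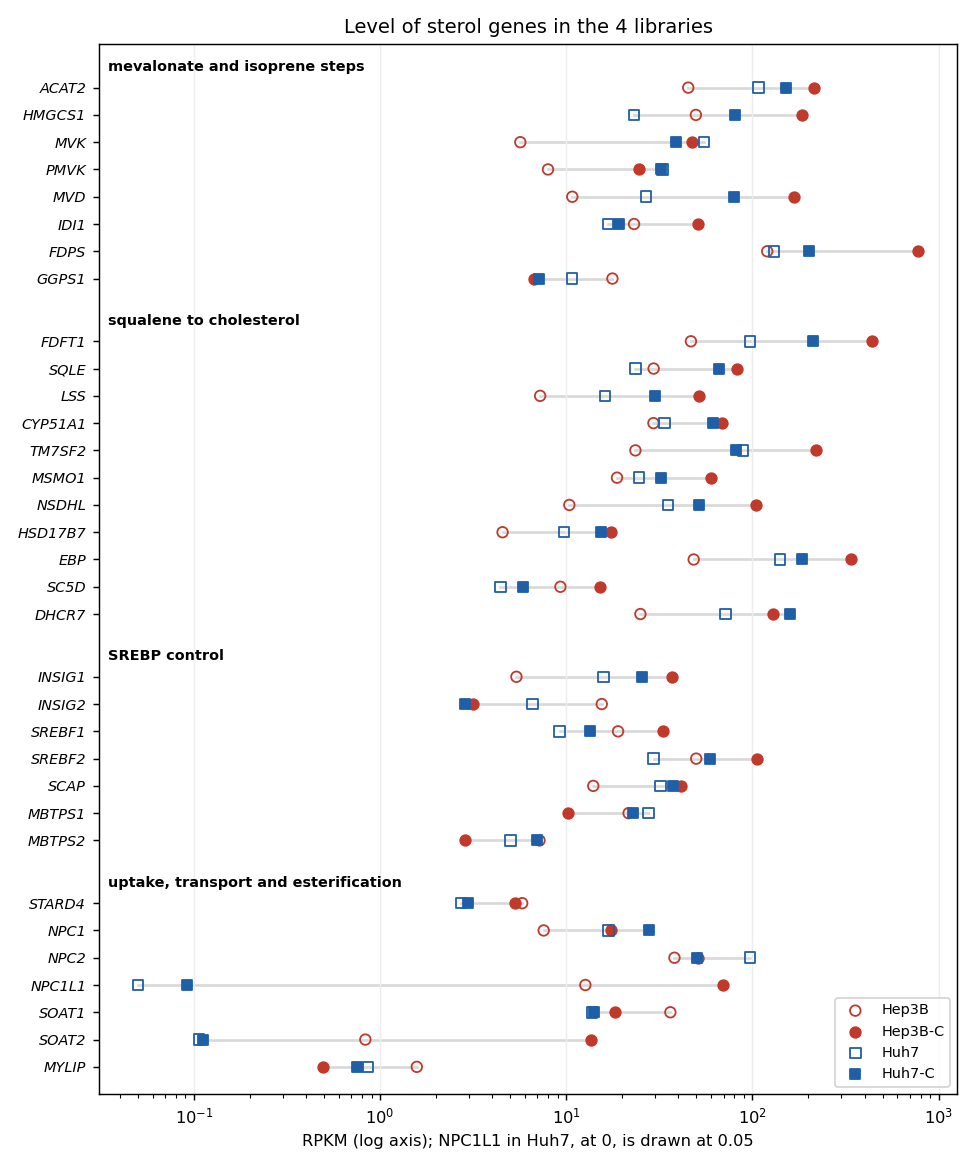
Level of each sterol gene in the 4 libraries as RPKM on a log axis, with open symbols for the HCC lines (Hep3B circles, Huh7 squares) and filled symbols for the HCSC lines, 1 library each. Filled circles (Hep3B-C) are the rightmost symbol for most synthesis genes, up to 779 RPKM for FDPS, and NPC1L1 and SOAT2 stand apart at or under 0.11 RPKM in the Huh7 pair.

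Among the 7 genes of SREBP control, 3 were up-regulated and 3 down-regulated in Hep3B-C, and 1 each in Huh7-C. The shares of all genes called were 13.2% up and 30.4% down in Hep3B-C, and 4.19% up and 4.15% down in Huh7-C. SREBF2 encodes SREBP-2, the form best known for driving cholesterol synthesis. It stood at 214.7 CPM in Hep3B, 455 CPM in Hep3B-C, 127 CPM in Huh7 and 255 CPM in Huh7-C. The fold was 2.12 in the Hep3B pair and 2.01 in the Huh7 pair, and the log2 fold-changes of 1.08 ± 0.07 and 1.01 ± 0.07 had a difference of 0.08 with an interval from -0.12 to 0.27. The difference was 0.71 with TMM, 1.21 with the length trend removed and 0.27 with GC content and length trends removed. In Huh7-C the log2 fold-change of SREBF2 lay just inside the called size. It fell under it with TMM (0.96), with the length trend removed (0.83) and with GC content and length trends removed (0.86). SREBF1, whose product SREBP-1 is best known for fatty acid synthesis, had 81.1 CPM in Hep3B, 142.2 CPM in Hep3B-C, 39.4 CPM in Huh7 and 57.5 CPM in Huh7-C. Its log2 fold-changes of 0.81 ± 0.11 and 0.54 ± 0.14 passed the FDR threshold and not the called size.

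SCAP, the escort of SREBP, stood at 59.4 CPM in Hep3B, 176.6 CPM in Hep3B-C, 137 CPM in Huh7 and 160.1 CPM in Huh7-C. Hep3B was again the low library. SCAP was up-regulated in Hep3B-C at 1.57 ± 0.12 and had 0.23 ± 0.08 in Huh7-C. The proteases that release SREBP, MBTPS1 (site-1 protease) and MBTPS2 (site-2 protease), were down-regulated in Hep3B-C at -1.09 ± 0.13 and -1.33 ± 0.24. In Huh7-C they had -0.27 ± 0.09 and 0.47 ± 0.19, without a call. Both calls in Hep3B-C were lost with TMM (-0.49 and -0.74), and with GC content and length trends removed MBTPS2 changed sign to 0.53. MBTPS2 shares 1093 exon bases with YY2 on the same strand.

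The INSIG genes went in opposite directions in Hep3B-C. INSIG1, which retains SCAP and is itself a known target of SREBP, stood at 16.2 CPM in Hep3B, 111 CPM in Hep3B-C, 47.6 CPM in Huh7 and 76.4 CPM in Huh7-C. Its log2 fold-change was 2.76 ± 0.22 in Hep3B-C, a call, and 0.68 ± 0.13 in Huh7-C, under the called size. INSIG2, the paralog with the same role, stood at 40.0 CPM in Hep3B, 8.19 CPM in Hep3B-C, 17.0 CPM in Huh7 and 7.38 CPM in Huh7-C. The HCSC libraries had the lowest levels and both HCC libraries lay above them. INSIG2 was down-regulated in both, at -2.28 ± 0.27 (116 and 38 counts) and -1.19 ± 0.30 (77 and 32 counts). INSIG2 has the second lowest GC content of the 33 genes, 36.9%, and with GC content and length trends removed it had -0.81 in Hep3B-C, no longer a call, and -1.15 in Huh7-C. INSIG1, at 46.0%, had 3.64 and 0.63 in the same setting. Of the promoter windows, that of INSIG1 held an NF-Y box and an E-box, and those of INSIG2 held neither.

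In uptake, transport and esterification, 3 of 7 genes were up-regulated in Hep3B-C and none was called in Huh7-C, with medians of 0.42 and 0.07. The Huh7-C median is the value of SOAT2, which had 1 count in each library there. Over the 5 genes with at least 10 counts in a library of that pair, the median was 0.03. The share of all genes called up in Hep3B-C was 13.2%. NPC1L1, a cholesterol importer of the apical membrane, was seen in the Hep3B lines and not beyond a few counts in the Huh7 lines. It had 185 counts in Hep3B and 1621 counts in Hep3B-C (log2 fold-change 2.45 ± 0.11), against 0 counts in Huh7 and 2 in Huh7-C. The limit taken for a count of 0, 3 counts, is 0.661 CPM in Huh7, and both Huh7 libraries were under 3 counts, so no fold is given there. SOAT2, the sterol acyltransferase known from liver and intestine, had 5 counts in Hep3B (exact interval 1.62 to 11.7), 130 counts in Hep3B-C and 1 count in each library of the Huh7 pair. SOAT2 was up-regulated in Hep3B-C at 3.89 ± 0.63.

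SOAT1, the acyltransferase of most other tissues, had -0.98 ± 0.11 in Hep3B-C, just short of the called size, and 0.03 ± 0.14 in Huh7-C. Its value in Hep3B-C turned to 0.39 with GC content and length trends removed. NPC1 and NPC2 pass cholesterol out of the lysosome. NPC1 was up-regulated in Hep3B-C at 1.20 ± 0.16 and had 0.71 ± 0.10 in Huh7-C. NPC2 had 0.42 ± 0.18 and -0.94 ± 0.13, the latter with an FDR of 1.9e-13 and just under the called size. STARD4, a sterol carrier, and MYLIP, a ubiquitin ligase that limits lipoprotein uptake, were called in neither line. MYLIP had -1.63 ± 0.65 in Hep3B-C with an FDR of 0.015. It had between 7 and 14 counts per library and STARD4 between 28 and 56, which limits the precision of both. STARD4 stood at -0.13 ± 0.30 in Hep3B-C and was called up there, at 1.13, with GC content and length trends removed.

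The HCC lines and the HCSC lines were also compared with each other. Hep3B was below Huh7 for 19 of 33 genes and lower by at least 1 on the log2 scale for 15, and it was above Huh7 for 14 and higher by at least 1 for 8. Of 12614 genes of all kinds, 44% were below, 22.5% lower by at least 1 and 34.3% higher by at least 1. The sterol genes had a median log2 ratio (Hep3B over Huh7) of -0.35 against 0.28 for all. Between the HCSC lines the order was turned. Hep3B-C was above Huh7-C for 26 of 33 (42.3% of all genes), with a median log2 ratio of 0.54 against -0.22 for all. The summed level of the 33 genes was 1986 CPM in Hep3B, 2555 CPM in Huh7, 4030 CPM in Huh7-C and 7393 CPM in Hep3B-C. The median level per length followed the same order, at 17.7, 23.5, 32.2 and 51.2 RPKM. The ratios use the same 4 libraries as the fold-changes, and cell line and library cannot be told apart.

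**Figure D3:**
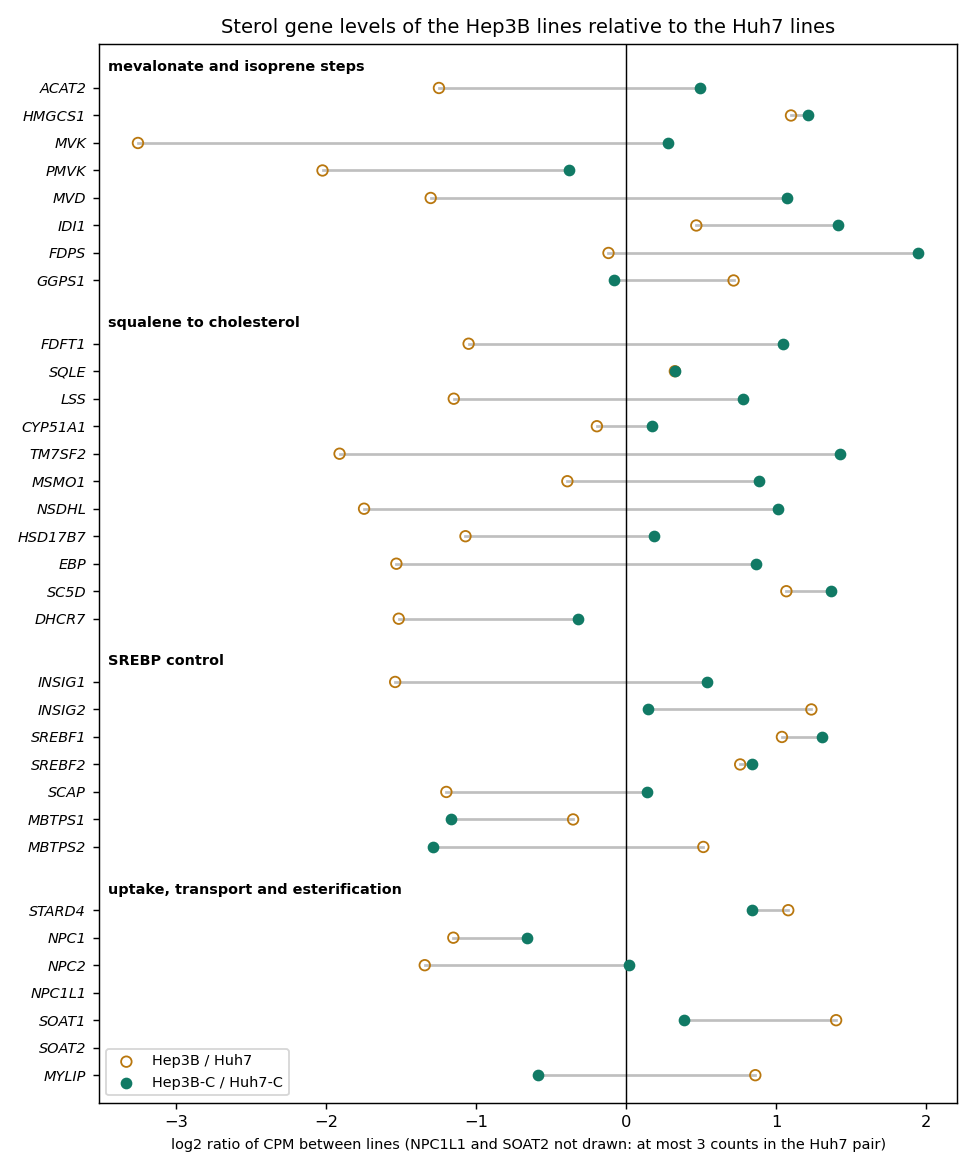
Log2 ratio of CPM of the Hep3B lines over the Huh7 lines for each sterol gene, as Hep3B over Huh7 (open) and Hep3B-C over Huh7-C (filled), 1 library per line. Most open points lie left of 0 and most filled points right of it, with medians of -0.35 and 0.54 over the 33 genes, NPC1L1 and SOAT2 included in the medians and not drawn.

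Fold-changes between libraries can follow the GC content and length of genes, so trends over all genes of the pair were fitted and each sterol gene was also read with both removed. The 33 genes had a median GC content of 50.3% and a median length of 2665 bases, against 49.3% and 2917 bases for all genes. With the trends removed, 24 were up-regulated in Hep3B-C and none was down-regulated, where 1550 of 15480 genes were up and 1994 down, and the median of the 33 was 1.92. The synthesis genes kept a median of 2.38, with 17 of 19 up-regulated. Removing the trends also moved the Hep3B-C median of all genes with at least 20 counts from -0.55 to 0.006. Changes of single genes between the settings include this shift. GC-poor enzymes gained, such as HMGCS1 (40.2% GC) from 1.90 to 3.41 and MSMO1 (38.1%) from 1.67 to 2.99. GC-rich ones lost, such as MVD (65.6%) from 3.95 to 2.59 and TM7SF2 (64.1%) from 3.21 to 1.79, both still called. Among genes called up, PMVK alone lost its call, at 0.31. In Huh7-C the calls were 5 up and 1 down with a median of 0.50, SREBF2 being the call lost.

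**Figure D4:**
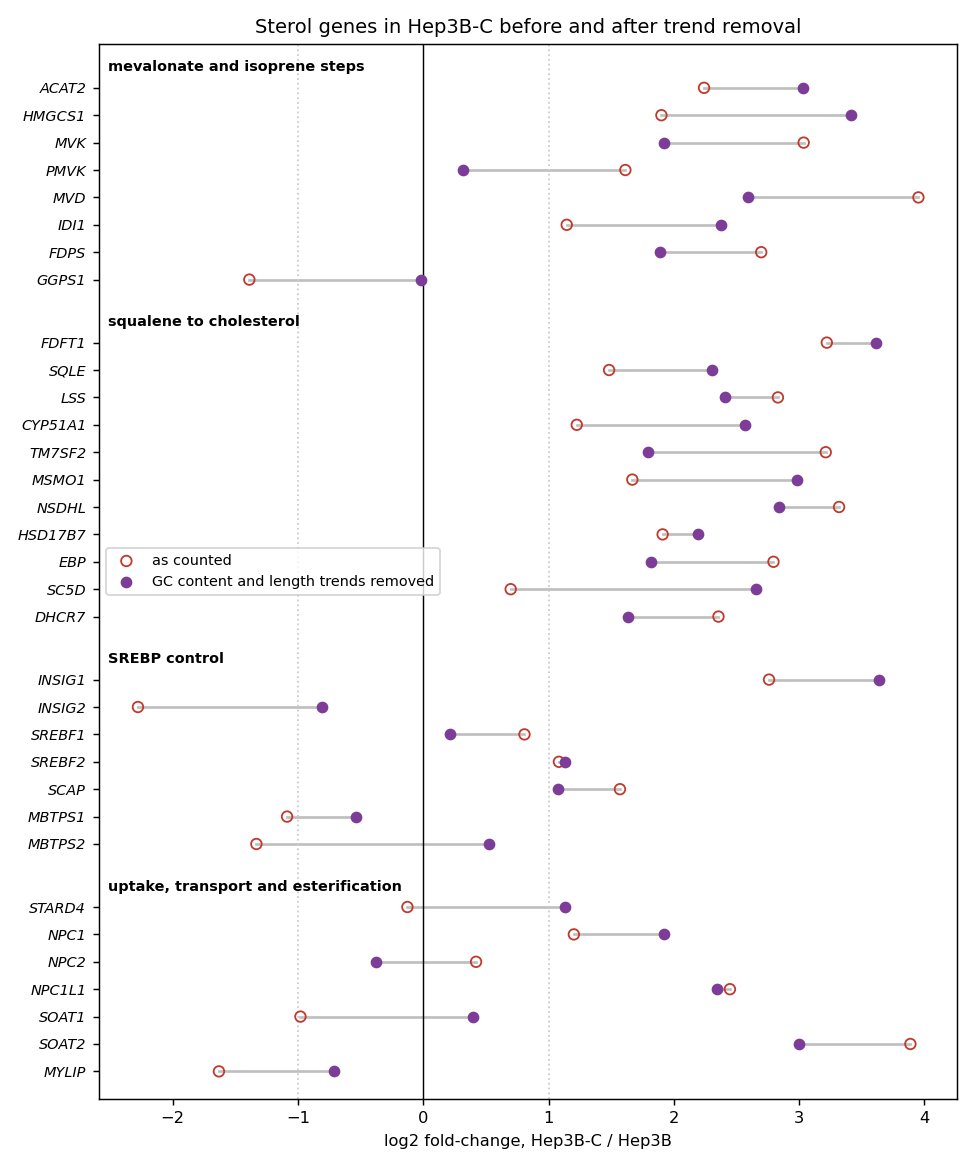
Log2 fold-change of each sterol gene in Hep3B-C against Hep3B as counted (open red circles) and with the GC content and length trends over all genes removed (filled purple circles). The synthesis genes other than GGPS1 stay right of 0 under both, and all genes that lay left of -1 as counted move to between -0.81 and 0.53.

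Both pairs were also fitted together with edgeR's quasi-likelihood test, with the parental line as a block and 1 residual degree of freedom. Of 11691 genes tested, 0.077% passed an adjusted p of 0.05, and none of the 32 sterol genes tested did. The smallest edgeR adjusted p among them was 0.595, that of MVD, whose log2 fold-change was 2.92. At an unadjusted p under 0.05, 8 sterol genes were higher in HCSC and 0 lower, where 1.27% of all genes were higher and 1.91% lower. These 8 were HMGCS1, MVD, FDFT1, LSS, NSDHL, DHCR7, INSIG1 and NPC1L1, the last with 2 counts in the Huh7 pair. DESeq2 with the same block called 0 and had 14 higher at an unadjusted p under 0.05, where 1.56% of all genes were higher and 1.08% lower. The joint median log2 fold-change was 1.21, and 25 of 32 genes were higher in HCSC. Single libraries moved this. In fits without the block the median was 1.24 with all 4 libraries and between 0.67 (without Hep3B-C) and 1.84 (without Huh7) with 1 left out. Genes higher at an unadjusted p under 0.05 were 6 with all 4, 0 without Hep3B (0.256% of all genes), 11 without Huh7 (4.08%), 0 without Hep3B-C (0.249%, with 1 sterol gene lower) and 5 without Huh7-C (1.37%).

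Genes near the sterol route were set beside it. They were grouped as the isoprenoid branch and prenylation, other cholesterol handling and sterol sensing, and fatty acid synthesis. For comparison, 13.2% of all genes were called up and 30.4% down in Hep3B-C, and 4.19% up and 4.15% down in Huh7-C. With TMM, 3348 of 15480 genes were called up and 2799 down in Hep3B-C. Of 15 isoprenoid branch genes, which turn the same precursors into ubiquinone, dolichol and protein prenyl groups, 3 were called up and 3 down in Hep3B-C and none in Huh7-C, with medians of -0.26 and 0.02. With TMM the Hep3B-C values were 5 up, 0 down and a median of 0.34. Of 17 other cholesterol handling genes listed in each pair, 4 were up and 3 down in Hep3B-C, while Huh7-C had 1 up, with medians of 0.15 and -0.06. With TMM the Hep3B-C values were 7 up, 1 down and a median of 0.75. The gene up in Huh7-C was TMEM97, whose product binds NPC1. It rose from 231 to 922 CPM in the Hep3B pair and from 100.1 to 235 CPM in the Huh7 pair, log2 fold-changes of 2.00 ± 0.06 and 1.23 ± 0.08. Of the fatty acid synthesis genes, 4 of 10 were up and 1 down in Hep3B-C and 2 of 9 up in Huh7-C, with medians of 0.84 and 0.65. With TMM the Hep3B-C values were 6 up, 0 down and a median of 1.44. FASN, fatty acid synthase, rose from 654 to 10345 CPM and from 468 to 1499 CPM, log2 fold-changes of 3.98 ± 0.03 and 1.68 ± 0.04.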

How the data were processed

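The authors sequenced the libraries on the Illumina Genome Analyzer II platform. Reads were trimmed of adapters and filtered on quality by the authors, aligned with NextGENe to NCBI Build 36.1 and deposited as raw read counts per gene, in whole numbers, beside the gene length in bases. Strand, annotation and the handling of multiply matching reads are not given in the sources used here, so reads of paralogs and overlapping genes may have been split or merged. Files of a pair list the same genes, and a gene listed in the files of 1 pair only was set to 0 in the joint fit.

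Each pair was compared with the Audic-Claverie test, with the tail doubled, Benjamini-Hochberg adjustment over all genes of the pair, and thresholds of FDR 0.01 and log2 fold-change 1, with 0.5 added to each count for the ratio. SE and intervals (95%) cover counting error only, and no molecular identifiers are named for the reads. A floor of 3 counts came to 1.04 CPM in Hep3B and to between 0.646 and 0.692 CPM in the other libraries. The joint fit used edgeR 4.0.16 (quasi-likelihood, TMM, filterByExpr) in R 4.3.3 and the parental line, known from the labels, as a block. Deviations of the paired libraries from their group means correlated across 11682 genes (Pearson 0.599). Alternatives were TMM, DESeq2 1.42.0, another added count, a count minimum, an exact binomial test, an assumed spread, and loess trends of length and GC content removed (GC known for 97.9% of genes). The pair tests and the joint fit were tested on simulated counts first. The simulated spread was counting error alone for the pair tests. For the joint fit it was set below the biological coefficient of variation of 0.514 estimated from these data. The simulations thus check the code and not the error rates at that spread. Other steps ran in Python 3.11.15 with pandas 2.3.3, numpy 2.4.6 and scipy 1.17.1.

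The 33 genes and the comparison lists were chosen with earlier results of these data known. All 33 are named. From each comparison list at most 2 genes are named, those called alike in both pairs and ranked by the smaller of their changes, with at least 50 counts in 1 library of each pair. SCD, ACSS2, ACSL3, ACACA, ELOVL5 and ELOVL6, named in the closing observations, fall outside this rule and were chosen after their values were seen. ABCG1 was not listed. Positions come from GENCODE 29 and promoters from RefSeq (GRCh38.p14), and serve as annotation, the reads having been aligned to another build.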

Additional observations from a re-analysis of the deposited data

Results flagged for a closer look

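MVK stood out because the library labelled Hep3B-C and the library labelled Huh7-C moved apart from their parental lines in opposite directions. Its log2 fold-change was 3.04 for Hep3B-C but -0.50 for Huh7-C. The difference was 3.54, with a 95% counting interval from 3.001 to 4.07. The difference between the lines was not tested, since each line had 1 library. Hep3B held 34 counts (exact 95% Poisson interval 23.5 to 47.5), where Hep3B-C held 453 counts, Huh7 516 and Huh7-C 348.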

How the results depend on the processing

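With 5 added to each count, a minimum of 10 counts or an exact binomial test, calls and medians of the 33 genes were those given or within 1.5 times of them. In Hep3B-C the 4 down-regulated genes became 1 with TMM, DESeq2 size factors or the length trend removed, and 0 with GC content and length trends removed. The median there was 2.21 with TMM, 2.29 with DESeq2 size factors, 2.04 without the length trend and 1.92 without both trends. With an assumed coefficient of variation of 0.4 (edgeR exact test), 1 gene (MVD) stayed up and 0 down in Hep3B-C, and 0 up and 0 down in Huh7-C. Down-regulated genes in Huh7-C numbered 2 with DESeq2 size factors. These log2 fold-changes turned sign. In Hep3B-C, MBTPS2 was 0.53, SOAT1 0.39 and STARD4 1.13 (a call) without both trends, STARD4 was 0.47 with TMM, and NPC2 was -0.24 without the length trend and -0.38 without both. In Huh7-C, PMVK was 0.14 without the length trend and 0.12 without both, TM7SF2 was 0.0023 without the length trend, SC5D was -0.016 without both, and SOAT1 was -0.0096 with TMM, -0.065 without the length trend and -0.07 without both. Intervals of the difference between the pairs, under alternatives chosen after seeing the data, lay below 0 for 2 genes with TMM, 1 without the length trend and 0 without both trends, in place of 5. Several of the values that turned sign lie within their counting error of 0, and the cause was not tested.

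The replicate block (parental line) came from the labels. Without it, edgeR called 0 of the 32 sterol genes, as with it, and 6 in place of 8 passed an unadjusted p under 0.05 (0.428% of all genes higher, 0.633% lower). Leaving out each library in turn gave from 0 to 0 calls, in fits without the block. With the filter off 0 were called, and with GC content and length offsets 0 were called. With these offsets 17 passed an unadjusted p under 0.05 (2.99% of all genes higher, 3.44% lower). The smallest edgeR adjusted p was 0.0598. The offsets were set on top of TMM library sizes, though the trends already held the shift between the Hep3B libraries. That shift was thus removed a second time, which moves values toward HCSC, and the 17 and the 0.0598 are not read as a result. With 1 residual degree of freedom these counts say little about stability. Genes at a few counts, NPC1L1 and SOAT2 in the Huh7 pair and MYLIP in all 4 libraries, are limited by depth.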

Other observations

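Some of the fatty acid genes that SREBP-1 is known to switch were also described, with no rule beyond their list. SCD, the desaturase that makes oleate, stood at 1146 CPM in Hep3B, 3359 CPM in Hep3B-C, 2091 CPM in Huh7 and 4078 CPM in Huh7-C, and only its change in Hep3B-C was called (log2 fold-change 1.55 against 0.96 in Huh7-C). ACSS2, which makes acetyl-CoA from acetate, had 37 counts in Hep3B and 808 in Hep3B-C (3.75 ± 0.24), against 588 in Huh7 and 762 in Huh7-C (0.44 ± 0.08), so that Hep3B was the low library, as for MVK. ACSL3, which activates fatty acids, was down-regulated in Hep3B-C (-1.44 ± 0.06) and had 0.07 ± 0.11 in Huh7-C. Other genes of the list also had the larger value in Huh7-C. ACACA had 0.89 ± 0.09 in Hep3B-C, without a call, and was called up in Huh7-C at 1.34 ± 0.09. ELOVL5 had -0.41 ± 0.09 in Hep3B-C and 0.56 ± 0.08 in Huh7-C, and ELOVL6 0.12 ± 0.15 and 0.93 ± 0.15, without a call. FASN held 48019 counts in Hep3B-C, 10345 CPM, against 7393 CPM for the 33 sterol genes together. CPM does not allow for gene length, so these are shares of reads and give no order of levels between genes. SCD, ACSS2, ACSL3, ACACA, ELOVL5 and ELOVL6 were picked from their list after their values had been seen.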
